A study of Mus musculus with 5 samples.

Results

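The 10 genes described here are Ciita, Cd74, H2-Aa, H2-Ab1, H2-Eb1, H2-DMa, H2-DMb1, H2-DMb2, H2-Oa and H2-Ob of the mouse. They encode the regulator, the invariant chain, 3 classical chains and 5 chains of the peptide-loading molecules of the class II branch of the major histocompatibility complex (MHC). They were chosen by gene symbol, with earlier results of these data known, and all 10 of them, out of 31053 genes in the count matrices, had reads in each of the 3 expression libraries.

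MHC class II molecules are pairs of an alpha and a beta chain that hold peptides from engulfed proteins and show them to CD4+ T cells. In the endoplasmic reticulum the pair is bound by the invariant chain (Cd74), which fills the peptide groove and is cut away in endosomes until a short remnant is left. H2-DM removes that remnant and edits the bound peptides, and H2-DO, found mainly in B cells, holds H2-DM back. Ciita is a coactivator that binds no DNA itself and acts through RFX, CREB and NF-Y factors seated on the X and Y boxes of class II promoters. Dendritic cells, macrophages and B cells are the main class II cells of the heart and of lymph nodes, and interferon gamma can induce the genes in endothelium and other cells.

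Promoter sequence from RefSeq (GRCm38.p6) was sought for the members other than Cd74 and was found for 7 of the 10. It is shown for 6 of them, because class II promoters are where the factors that recruit Ciita are known to sit, and because the set holds genes of both patterns described below, H2-Aa, H2-Eb1 and H2-DMb1 on one side and H2-DMb2, H2-Oa and H2-Ob on the other. Each run gives the bases just before the start, 5′ to 3′ on the gene's strand, and capitals mark TGATTGG (letters of the Y box), AGCAAC (letters of the X1 box) and TGATGC (letters of the X2 box).
H2-Aa, chr17:34287824-34287948, minus strand: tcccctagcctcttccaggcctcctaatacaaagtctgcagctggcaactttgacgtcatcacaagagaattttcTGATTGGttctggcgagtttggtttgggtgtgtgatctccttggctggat
H2-Eb1, chr17:34305742-34305866, plus strand: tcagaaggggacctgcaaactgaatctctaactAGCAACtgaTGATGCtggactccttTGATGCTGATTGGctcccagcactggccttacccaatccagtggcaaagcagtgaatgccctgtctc
H2-DMb1, chr17:34153066-34153190, plus strand: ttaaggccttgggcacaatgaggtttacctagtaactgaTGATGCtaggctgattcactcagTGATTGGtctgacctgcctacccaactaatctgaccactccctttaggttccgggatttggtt
H2-DMb2, chr17:34145124-34145248, plus strand: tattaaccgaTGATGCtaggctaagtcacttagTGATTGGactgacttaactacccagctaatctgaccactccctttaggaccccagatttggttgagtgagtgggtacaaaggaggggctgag
H2-Oa, chr17:34092254-34092378, plus strand: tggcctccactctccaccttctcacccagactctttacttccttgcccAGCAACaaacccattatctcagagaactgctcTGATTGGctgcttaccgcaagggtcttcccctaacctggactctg
H2-Ob, chr17:34238780-34238904, plus strand: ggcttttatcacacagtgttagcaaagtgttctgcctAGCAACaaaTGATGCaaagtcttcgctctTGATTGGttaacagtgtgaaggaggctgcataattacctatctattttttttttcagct

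All 6 promoters carried TGATTGG, 45 (H2-Oa) to 92 (H2-DMb2) bases before the start. The start meant here is that of the RefSeq promoter, which can differ from the gene positions used below. Those positions start H2-Oa at 34092340, H2-DMb1 at 34153072 and H2-DMb2 at 34143307, for example. By them, the printed runs of these genes lie partly or wholly past the gene start. In H2-Eb1, H2-Oa and H2-Ob the letters AGCAAC stood 29 to 32 bases upstream of it, and in H2-DMb1, H2-DMb2, H2-Ob and H2-Eb1 TGATGC stood 20 to 23 bases upstream. Searched on both strands of 32817 promoter windows of 300 bases, TGATTGG was found in 7.80%, AGCAAC in 14.8% and TGATGC in 10.9%, and 1 of the last pair placed 15 to 40 bases upstream of TGATTGG in 64 windows (0.195%). None of the matches shown overlapped another. The letters were chosen after these sequences had been seen, a match is not a measured binding site, and the windows of H2-DMa held none of them.

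Hearts of C57BL/6 mice aged 2 months and 18 months were digested and stained, and cells were sorted as non-cardiomyocytes and run as 1 single-cell library per age with a 3′ kit. A further library of mediastinal lymph node T cells pooled C57BL/6 mice aged 2, 6, 12 and 18 months, was made with a 5′ kit and came with T cell receptor contigs and hashtag antibody counts. The labels name aging as the only treatment and give no number of animals per library. With 1 library per age there is no replicate, so no p-value is given, and each interval covers counting error alone.

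After filtering, 10910 cells with a median of 8033 UMIs (unique molecules counted) remained at 2 months, 7816 cells with 4371 at 18 months, and 10293 cells with 2712 in the lymph node. The heart libraries shared 31 barcodes with each other, and the lymph node shared 6 with the 2-month heart and 0 with the 18-month heart. Clustering was done without the 10 genes, and each class is called by the cell type whose marker genes it carried, so that "B cell" stands for B cell-like and so on. Against the labels, the hearts also held cardiomyocyte-like cells, 687 at 2 months and 146 at 18 months, and the lymph node held B, dendritic and plasma cells beside 7893 T cells. In the hearts, 6.3% of cells at 2 months and 8.66% at 18 months stayed unnamed, mostly a cluster led by Ighm and C1qa, genes of B cells and of macrophages, and a cluster of high depth led by T cell genes, and these held 39.5% and 39.3% of all class II UMIs. Levels are given as CPM, the UMIs of a gene summed over a class and scaled to a common library size.

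Ciita lies on chromosome 16, Cd74 on chromosome 18, and the other 8 genes lie on chromosome 17 between 34092340 (the start of H2-Oa) and 34316674 (the end of H2-Eb1) in GRCm38, where H2-Aa is on the minus strand and the other 7 on the plus strand.

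Of the named heart classes, dendritic cells, macrophages and B cells had the highest levels of Ciita, Cd74 and the classical chains, and monocytes came next. Ciita stood at 212 CPM (95% Poisson interval 198 to 227) in 243 dendritic cells of the 2-month library and at 268 in 184 cells of the 18-month library. In macrophages Ciita was 210 CPM at 2 months (538 cells) and 163 at 18 months (659 cells), and in B cells it was 87.0 CPM (915 cells) and 186 CPM (987 cells). The Ciita levels of dendritic cells and macrophages overlapped within counting error at 2 months, and B cells lay below both there. At 18 months the order was dendritic cells, B cells and macrophages.

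Cd74, the invariant chain, was 29527 CPM in dendritic cells at 2 months and 29568 at 18 months, 25012 and 26029 in macrophages, and 13528 and 16927 in B cells. That order held in both libraries without overlap of the intervals. H2-Aa, the alpha chain of the I-A molecule, was 10526 and 10094 CPM in dendritic cells, 7719 and 9018 in macrophages, and 3450 and 4076 in B cells. Its partner H2-Ab1 was 9802 and 9741 CPM in dendritic cells, 6515 and 7449 in macrophages, and 2649 and 3301 in B cells. H2-Eb1, the beta chain of the I-E molecule, was 9745 and 9367 CPM in dendritic cells, 7214 and 8759 in macrophages, and 2877 and 3369 in B cells. The C57BL/6 strain makes no I-E alpha chain, which is background here and was not measured.

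The peptide-loading genes did not all follow that order. H2-DMa, the alpha chain of H2-DM, was 1028 and 1093 CPM in dendritic cells, 639 and 695 in macrophages and 365 and 420 in B cells at 2 and 18 months. H2-DMb1, a beta chain of H2-DM, followed the order of Cd74, with 998 and 955 CPM in dendritic cells, 568 and 693 in macrophages and 80.3 and 144 in B cells. Monocytes had more H2-DMb1 than B cells at both ages, 358 and 206 CPM. H2-DMb2, the product of a neighbouring copy of the beta chain gene, ran the other way. It was 503 and 562 CPM in B cells, 257 and 155 in dendritic cells and 27.6 and 16.8 in macrophages. H2-Oa and H2-Ob, the chains of H2-DO, were also highest in B cells, with 172 and 220 CPM for H2-Oa and 212 and 488 for H2-Ob. Dendritic cells had 137 and 126 CPM of H2-Oa and 76.0 and 107 of H2-Ob, and macrophages had 14.3 and 7.13 of H2-Oa and 18.5 and 18.4 of H2-Ob. At 2 months B cells were 8.39% of heart cells and held 49.7% of the H2-DMb2, 43.5% of the H2-Oa and 48.3% of the H2-Ob UMIs, against 17.9% of all class II UMIs.

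**Figure D1:**
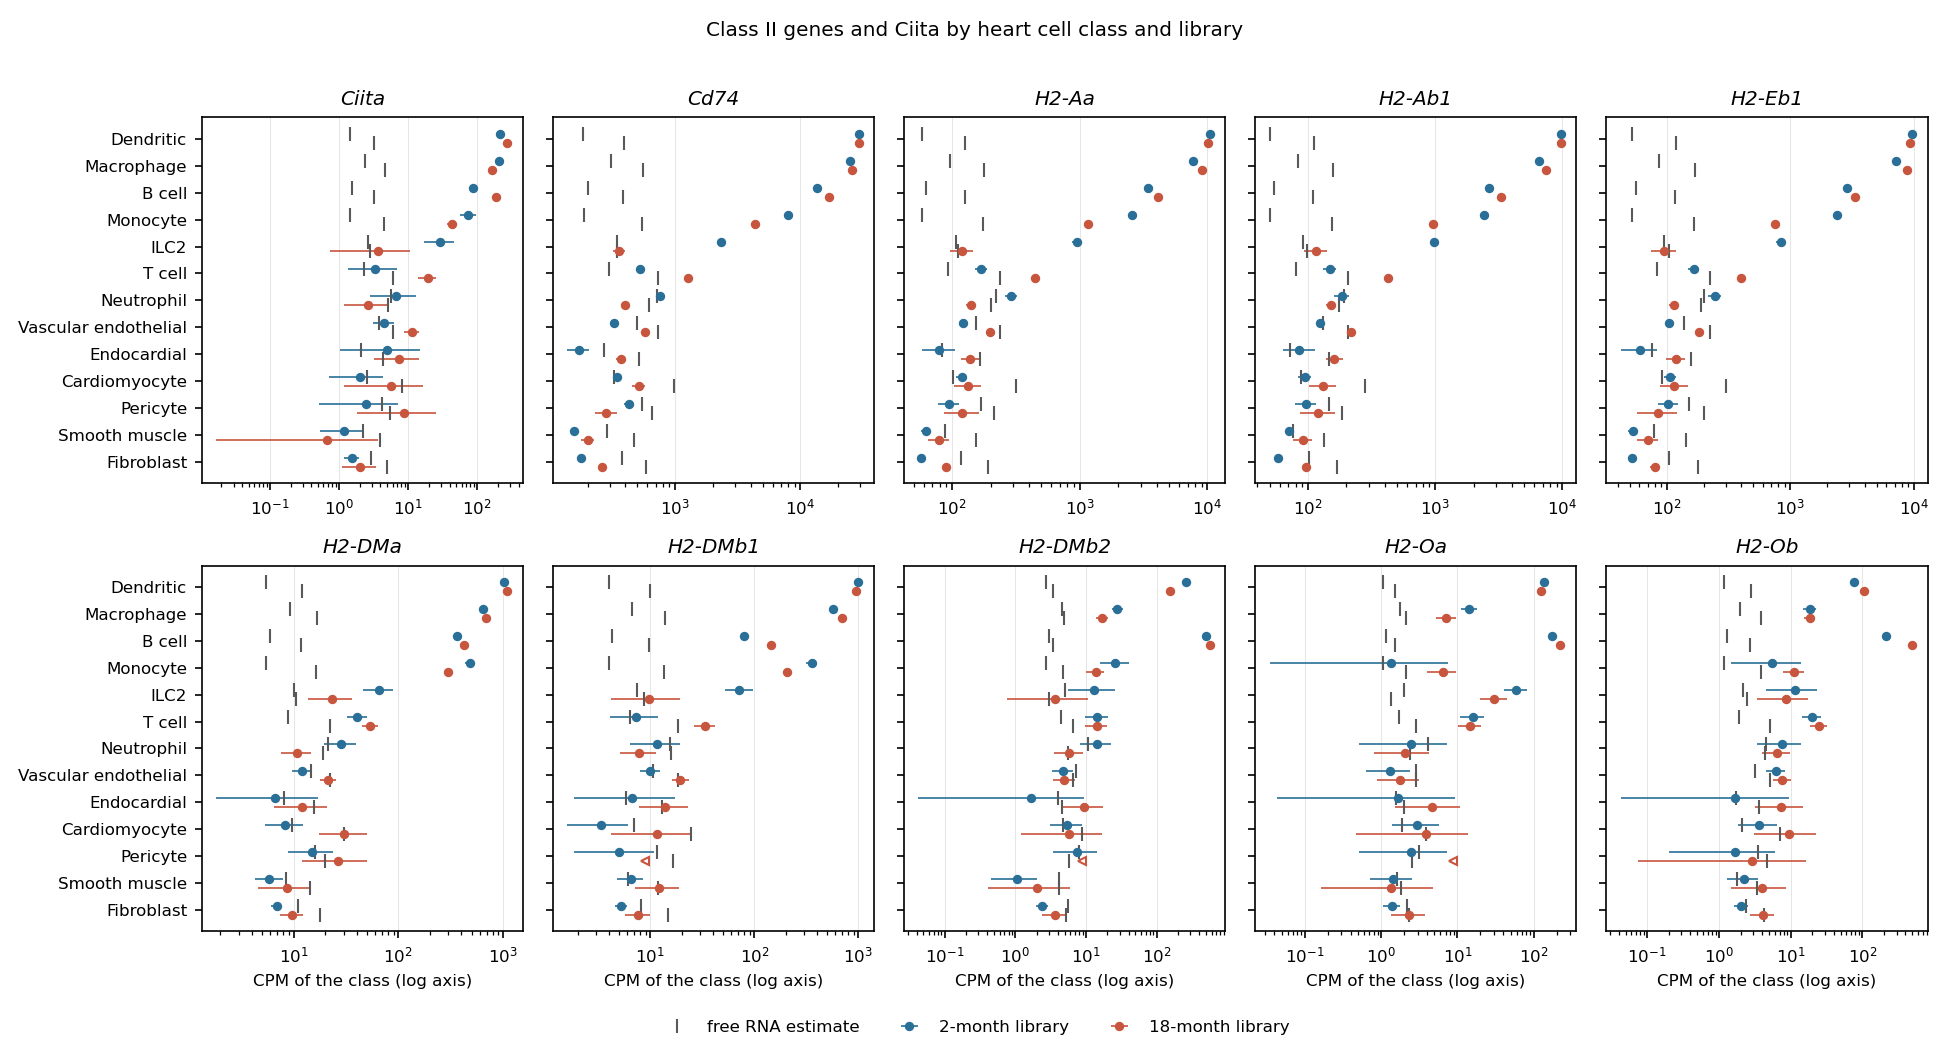
Level of each of the 10 genes (CPM of the class, log axis) in 13 heart cell classes, with the 2-month library in blue and the 18-month library in red. Bars are exact 95% Poisson intervals, open triangles mark the limit that 3 UMIs would give where none were seen, and dark ticks are the level estimated for free RNA. Dendritic cells and macrophages sit above the other non-B classes for Ciita, Cd74, the classical chains, H2-DMa and H2-DMb1, whereas for H2-Oa and H2-Ob macrophages lie near the T cell class.

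Taking dendritic, macrophage and B cells together, class II UMIs made up 38853 CPM in 1696 cells of the 2-month library against 715 CPM in 8527 cells of other named classes. The ratio was 54.3 (95% interval 53.8 to 54.8). At 18 months it was 24.5 (24.3 to 24.7), from 46675 CPM in 1830 cells and 1904 CPM in 5309 cells. All 10 members were at least 1.5-fold higher in the antigen-presenting cells with an interval that left out equality, as were 16% of the 15980 genes tested at 2 months and 12.4% of 14912 at 18 months. Member ratios ran from 37.2 for H2-Ob to 81.5 for H2-DMb2 at 2 months and from 12.8 for H2-DMa to 36.3 for H2-DMb2 at 18 months. The make-up of the other cells differed between the ages. They included 920 neutrophils, 336 monocytes and 571 fibroblasts at 18 months, against 216, 54 and 3180 at 2 months. Class II at 18 months was 838 CPM in the neutrophils, 7763 in the monocytes and 555 in the fibroblasts. The part of this make-up in the lower ratio was not tested.

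Free RNA released from broken cells gives UMIs in cells that do not make a transcript, so its level was estimated. For each class, the levels of marker genes of foreign cell types were divided by their levels in the whole library, and the median of these quotients was taken. In vascular endothelial cells the median over 132 markers was 8.10% of the library level at 2 months and 6.70% over 133 markers at 18 months, though single markers ran from 0% to 802% and 0% to 747%. Class II stood at 6.07% and 5.72% of its own library level, which is 0.749 and 0.853 times the estimate. In fibroblasts the quotient was 0.499 and 0.471, in smooth muscle cells 0.658 and 0.498 (1.118 and 0.674 from B cell, macrophage and dendritic markers alone), and in endocardial cells 0.793 and 0.824. Levels at or below this estimate cannot be read as expression by the cells themselves. The same quotient was 173 and 79.0 in dendritic cells, 79.7 and 48.1 in macrophages and 61.4 and 38.6 in B cells.

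Cd74 in endothelium, for example, was 326 CPM against an estimate of 493 at 2 months and 575 against 730 at 18 months. Ciita was 4.47 CPM (3.097 to 6.25) against 3.86 at 2 months and 11.3 (8.86 to 14.3) against 6.12 at 18 months. Of the 10 genes, 8 lay below the estimate in endothelium at 2 months and 6 at 18 months. At 18 months the 4 above it were Ciita, H2-Ab1 (218 CPM against 208), H2-DMb1 (19.5 against 18.5) and H2-Ob (7.67 against 5.21). In T cells class II was 1.92 and 1.85 times the estimate from all foreign markers, but 0.811 and 1.005 times that from B cell, macrophage and dendritic markers alone.

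Between the ages, the 10 genes were compared within each class as the log2 ratio of the 18-month over the 2-month library, and a gene with at least 20 UMIs was counted as higher or lower if it differed at least 1.5-fold and its exact 95% interval left out 0. In B cells 3 of the 10 genes were higher at 18 months and 0 lower, where 17.6% of all genes tested were higher and 6.12% lower. H2-Ob, the beta chain of H2-DO, was higher by a log2 ratio of 1.20 (interval 1.115 to 1.29), Ciita by 1.09 (0.95 to 1.23) and H2-DMb1 by 0.85 (0.69 to 0.999). The other 7 had ratios from 0.16 (H2-DMb2) to 0.36 (H2-Oa), and the median over the 10 was 0.32 against 0.20 over all genes. Scaling by trimmed means, which lowers each B cell ratio by 0.22, put the class II median at 0.10.

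The B cells of the libraries fell into different clusters. A cluster led by Ighd and Fcer2a, genes of mature follicular B cells, held 68 cells at 2 months and 510 at 18 months. Clusters led by Zbtb32 and Mzb1 (406 and 49 cells) and by Cr2, the complement receptor CD21 (339 and 26 cells), were mostly of the 2-month library, and a cluster led by Ccr7 (74 and 251 cells) mostly of the 18-month library. Ciita was 168 and 252 CPM in the Ighd cluster, 64.0 and 78.8 in the Zbtb32 cluster, 112 and 146 in the Cr2 cluster, and 146 and 143 in the Ccr7 cluster. The level thus differed more between clusters of the same library than between ages of the same cluster. Within the 5 clusters that had 20 cells in both libraries, the Ciita log2 ratio ran from -0.03 to 0.58 and 1 cluster was higher.

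H2-Ob differed between the ages within clusters too, with log2 ratios from 0.42 to 0.92, and 3 of the 5 clusters were higher at 18 months. It was 169 and 319 CPM in the Zbtb32 cluster, 251 and 382 in the Cr2 cluster and 319 and 501 in the Ccr7 cluster at 2 and 18 months. For H2-DMb1 the range was -0.13 to 0.50, and for H2-Aa it was -0.16 to 0.26, with no cluster higher or lower for either. With the 5 clusters weighted equally, the log2 ratio was 0.29 for Ciita, 0.56 for H2-Ob and 0.25 for H2-DMb1. Hashtag antibodies, whose meaning in the heart libraries the labels do not give, split the cells as well. Of the 915 B cells at 2 months, 852 carried Hashtag09, with Ciita at 85.5 CPM, and 60 carried Hashtag10, with 146 CPM. At 18 months Ciita was 169 CPM in 407 B cells with Hashtag11 and 197 in 556 with Hashtag12. A cluster led by Vpreb3 and Spib (27 and 124 cells) differed in another way, since it had 7.48 Cd74 UMIs for each H2-Aa UMI, against 3.85 to 4.10 in the 4 clusters above.

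**Figure D2:**
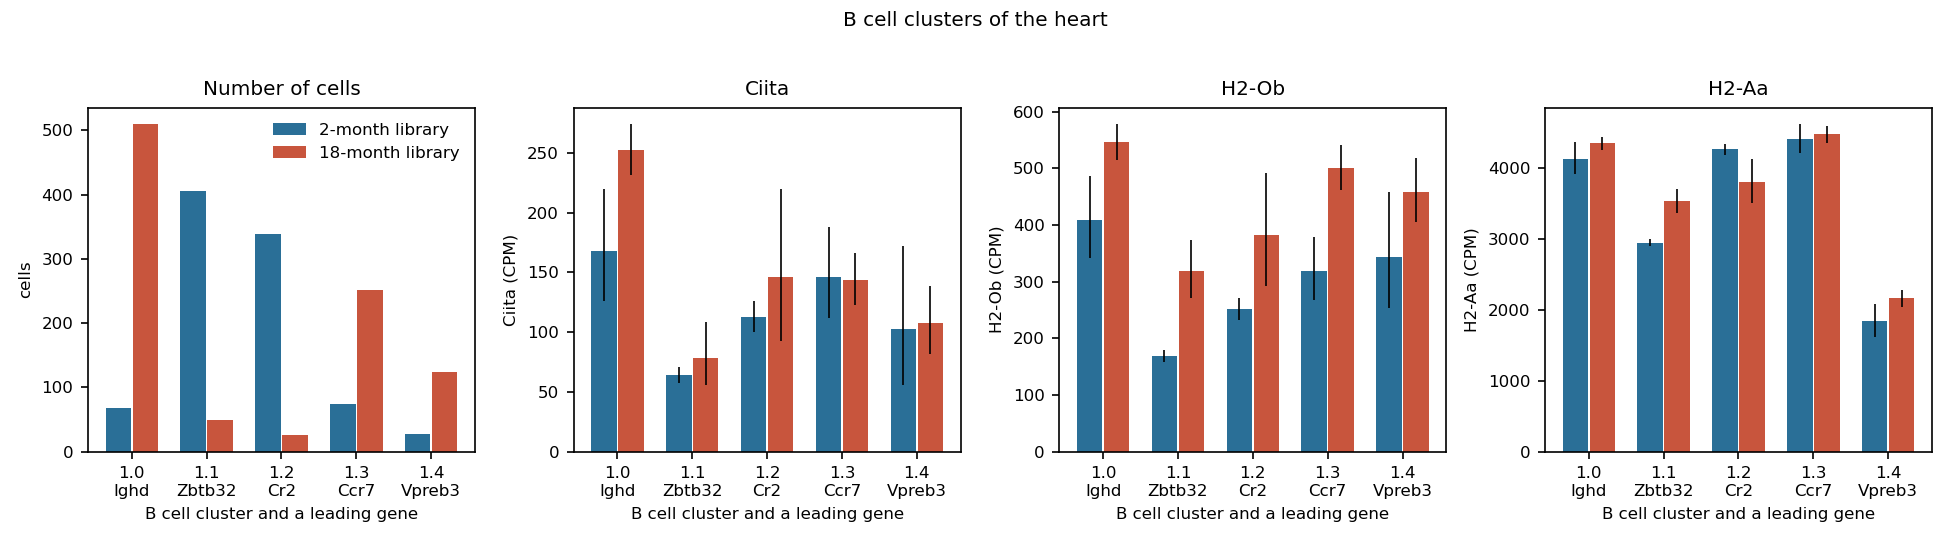
Number of cells and CPM of Ciita, H2-Ob and H2-Aa in the 5 B cell clusters of the heart that had at least 20 cells in both libraries, at 2 months (blue) and 18 months (red). Bars of error are exact 95% Poisson intervals. Ciita differs more between clusters than between ages, and H2-Ob is above its 2-month level in all 5, by a margin that counting error does not cover in 4.

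In macrophages the classical genes differed little between the ages. The median log2 ratio was 0.09 (interval 0.05 to 0.13) against -0.01 over all genes, 0 of the 10 genes were higher and 2 were lower, where 3.97% of all genes were higher and 3.98% lower. H2-DMb2 was lower by a log2 ratio of -0.72 (-1.10 to -0.33) and H2-Oa by -1.01 (-1.59 to -0.44). Both genes were highest in B cells, and 5 cells held 50.4% of the H2-DMb2 and 52.3% of the H2-Oa UMIs of the macrophages at 2 months. The 102 macrophages with Hashtag09, the hashtag of most B cells, had 76.7 CPM of H2-DMb2 and 36.4 of H2-Oa, whereas the 423 with Hashtag10 had 8.70 and 6.301. At 18 months H2-DMb2 was 15.4 CPM with Hashtag11 and 13.18 with Hashtag12, and H2-Oa was 7.48 and 4.30. With the 2-month cells limited to Hashtag10, the log2 ratio was 0.82 or 0.60 for H2-DMb2 and 0.25 or -0.55 for H2-Oa, by Hashtag11 or Hashtag12 at 18 months, and the part of B cell RNA in these levels was not tested.

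Macrophage clusters differed more than ages. A cluster led by Folr2, Lyve1 and Cd163, genes of resident macrophages of tissues (97 cells at 2 months, 119 at 18 months), had Cd74 at 12287 and 12722 CPM, against 23102 to 28849 and 23448 to 32519 in the other 5 clusters. Its H2-Aa was 3668 and 5064 CPM, and its Ciita was 91.7 and 74.4 CPM. A cluster with Ccr2 and Trem2 (35 cells at 2 months) had the highest H2-DMb2 of the macrophages, 151 and 36.6 CPM. Ciita in macrophages as a whole had a log2 ratio of -0.37 (-0.50 to -0.24), within the 1.5-fold limit, and over the clusters with 20 cells in both libraries its log2 ratio ran from -0.84 to 0.30, with 1 of 5 lower.

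In dendritic cells 1 of the 10 genes was lower and 0 higher at 18 months, where 7.49% of all genes were lower and 7.88% higher, and the median was -0.03 against 0.02 over all genes. The lower gene was H2-DMb2, at 257 CPM and 155 CPM, a log2 ratio of -0.73 (-0.89 to -0.57). Type 1 dendritic cells (Xcr1, Clec9a), which present antigen to CD8+ T cells, were 22 of 243 dendritic cells at 2 months and 63 of 184 at 18 months. They had H2-DMb2 at 57.9 and 89.2 CPM, whereas type 2 cells (Cd209a, Clec10a), which prime CD4+ T cells, had 290 and 203. Within the 3 dendritic clusters that had 20 cells in both libraries, none was lower for H2-DMb2, and with these clusters weighted equally its log2 ratio was 0.14. A cluster led by Tnip3 and Cd209a, with 102 cells at 2 months and 14 at 18 months, was too small for that comparison. H2-DMb2 gave 27.4% of the 2755 UMIs of both H2-DM beta chain genes in it, so the comparison leaves out much of the H2-DMb2 of dendritic cells.

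Dendritic subsets differed from each other in several of the genes. Over both libraries type 1 cells had Ciita at 332 CPM, H2-DMa at 1284 and H2-Ob at 197, against 218, 1036 and 63.0 in 315 type 2 cells. Plasmacytoid cells (14 cells, Siglech) had Cd74 at 13531 CPM and Ciita at 90.7. Migratory dendritic cells (13 cells, Ccr7, Fscn1), which have matured and carry peptide to lymph nodes, had Ciita at 65.7 CPM, H2-DMa at 148 and H2-DMb1 at 104, with H2-Aa at 6555. Numbers of cells in the latter subsets are too small for a comparison of the ages.

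**Figure D3:**
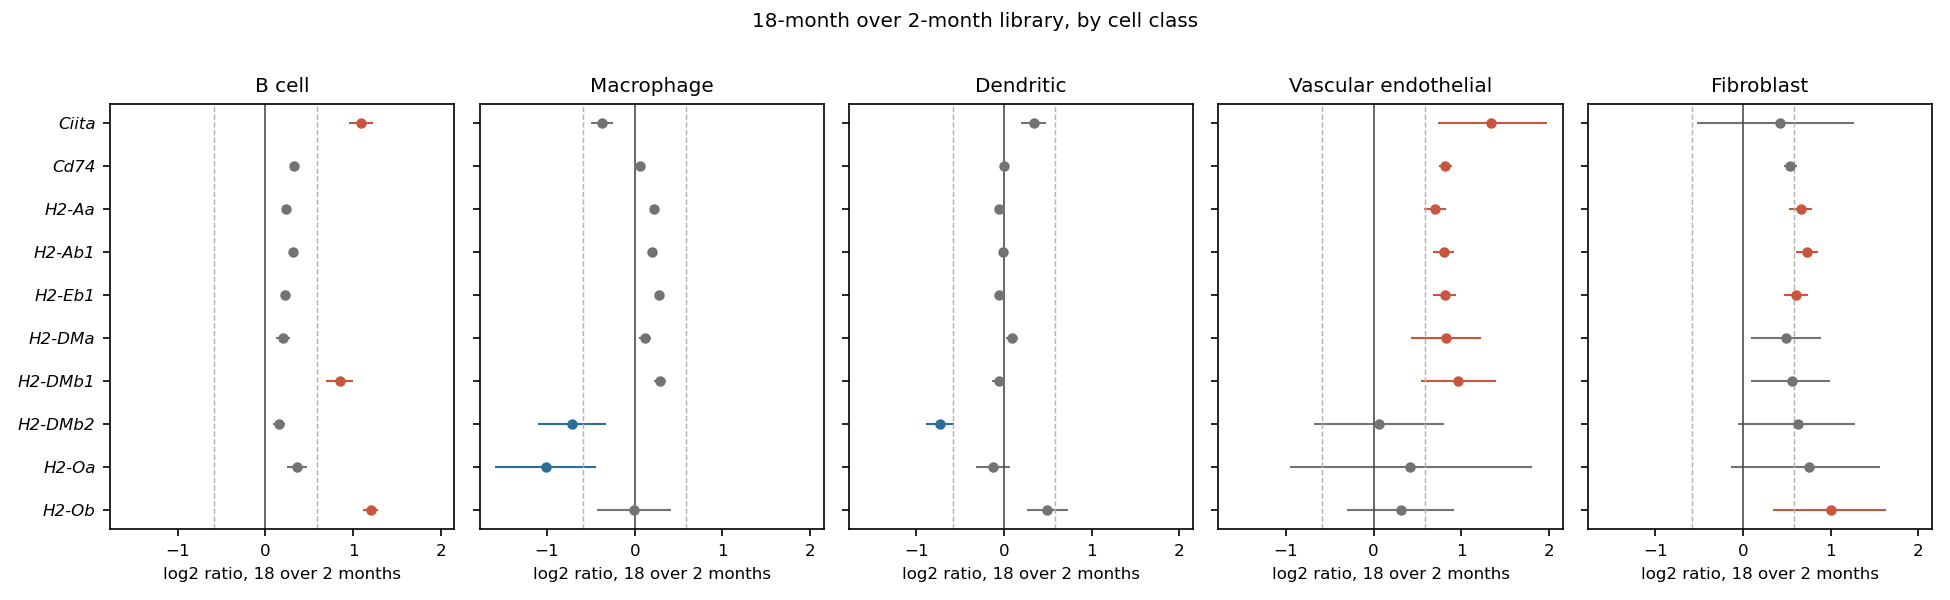
The log2 ratio of the 18-month over the 2-month heart library for each of the 10 genes in 5 cell classes, with exact 95% intervals for counting error. Dashed lines mark 1.5-fold, and red and blue points are genes counted as higher or lower at 18 months. B cells have 3 higher, macrophages 2 lower, dendritic cells 1 lower, vascular endothelial cells 7 higher and fibroblasts 4 higher.

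B cells of the heart differed from macrophages and from type 1 and type 2 dendritic cells in their H2-DM beta chain. H2-DMb2 gave 86.2% (exact binomial interval 85.3 to 87.1) of the UMIs of both beta chain genes in B cells at 2 months and 79.6% (78.2 to 80.9) at 18 months. In macrophages H2-DMb2 gave 4.63% and 2.36%, and in the cluster led by Folr2 it gave 1.72%. Type 1 dendritic cells had 7.46% and type 2 cells 20.3% over both libraries. The share was also high in the 13 migratory dendritic cells, at 63.5% of 52 UMIs, and in T cells at 2 months, at 66.7% of 45 UMIs. In the lymph node it was 83.6% in plasma cells, 75.3% in migratory dendritic cells and 72.8% in T cells, the last from 151 UMIs. These are shares of UMIs and not of molecules per length. The reference transcripts of H2-DMb1 and H2-DMb2 share 27.2% and 25.2% of their stretches of 50 bases, and of the last 500 bases of H2-DMb1, which a 3′ kit reads, 92 of 451 stretches occur in H2-DMb2, so counts of H2-DMb1 remain uncertain to that extent. Of the last 500 bases of H2-DMb2, 0 of 451 stretches occur in H2-DMb1. The lymph node library was made with a 5′ kit, and sharing near that end was not examined, so its shares carry a further uncertainty.

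H2-DO relative to H2-DM, as the share of H2-Oa and H2-Ob in the UMIs of all 5 peptide-loading genes, was 28.8% (28.01 to 29.6) in B cells at 2 months and 38.6% (37.6 to 39.7) at 18 months. It was 26.7% in the Zbtb32 cluster, 31.3% in the Cr2 cluster, 36.8% in the Ccr7 cluster and 39.7% in the Ighd cluster. A further B cell cluster, with 1 cell at 2 months and 27 at 18 months, had 26.7%. Dendritic cells had 8.55% and 9.56%, macrophages 2.59% and 1.78%, and the Folr2 cluster 0.652%.

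**Figure D4:**
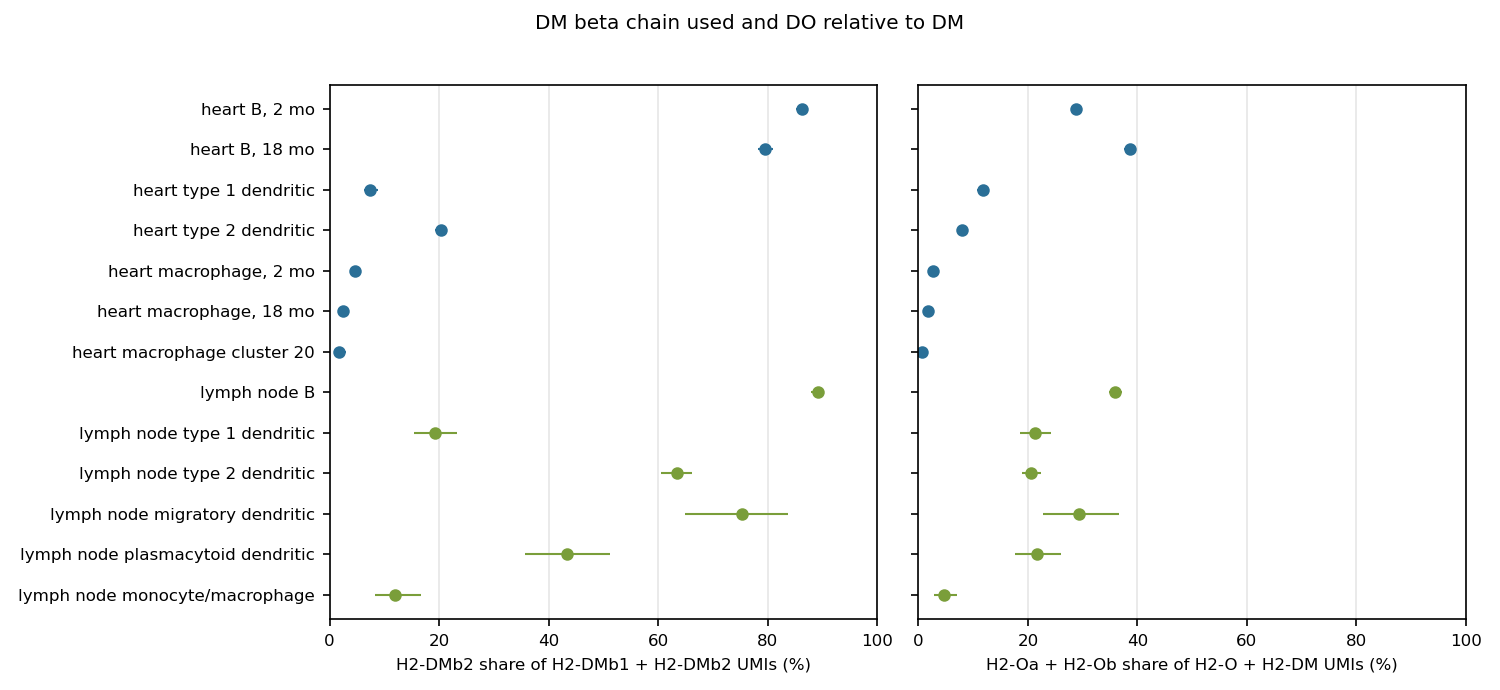
Share of H2-DMb2 in the UMIs of both H2-DM beta chain genes (left) and share of H2-Oa and H2-Ob in the UMIs of the 5 H2-DM and H2-DO genes (right), for heart (blue) and lymph node (green) cells, with exact 95% binomial intervals. B cells lie between 79.6% and 89.2% on the left and above the dendritic cells and macrophages of the same tissue on the right. The kits of heart and lymph node differ, so shares are not directly comparable between the tissues.

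In vascular endothelial cells 7 of the 10 genes were higher at 18 months and 0 lower, where 5.02% of all genes were higher and 4.24% lower. The median log2 ratio was 0.81 (0.68 to 0.93) against -0.01 over all genes. Ciita had 1.34 (0.73 to 1.98), Cd74 0.82 (0.74 to 0.89) and H2-Aa 0.70 (0.58 to 0.83), and H2-DMb2, H2-Oa and H2-Ob were neither higher nor lower. Class II in the whole library, to which free RNA is tied, was 11826 CPM at 2 months and 21760 at 18 months, a log2 ratio of 0.88. In cells without a hashtag, Ciita was 3.20 and 4.45 CPM, whereas with a hashtag it was 5.34 and 9.03 at 2 months and 18.6 and 18.1 at 18 months. A cluster led by Sema3g and Gja5, genes of arterial endothelium (431 and 434 cells), had Ciita at 8.25 and 18.6 CPM and H2-DMb1 at 15.9 and 38.5. In the 388 and 360 endothelial cells without a UMI of any antigen-presenting cell marker, class II was 885 and 1084 CPM, against 718 and 1244 over all endothelial cells. There Cd74 was 370 and 453 CPM and H2-DMb1 11.6 and 8.33, the latter from under 20 UMIs. A cell can lack a marker UMI because its depth is low, and depth was not matched here. The part of free RNA in these differences was not tested beyond the estimate above.

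Fibroblasts had 4 of 10 genes higher at 18 months (H2-Aa, H2-Ab1, H2-Eb1 and H2-Ob) and 0 lower, where 6.7% of all genes were higher and 3.01% lower, with a median of 0.62 against 0.04. With doublets kept the median was -0.071, with H2-Aa at -0.020 and H2-Eb1 at -0.12, and H2-Ob was -1.21 for Hashtag09 against Hashtag12. Their class II lay below the free RNA estimate at both ages. The 2960 fibroblasts without a hashtag at 2 months had Cd74 at 93.5 CPM and the 517 at 18 months had 127. Those with a hashtag had 1159 CPM (Hashtag09, 165 cells) and 865 (Hashtag10, 55 cells) at 2 months, and 1210 (Hashtag11, 30 cells) and 1324 (Hashtag12, 24 cells) at 18 months. Endocardial cells had 4 of 4 measured genes higher, where 6.11% of all genes were higher and 8.39% lower, with a median of 0.95. Beside Npr3, Vwf and Plvap, the leading genes of the endocardial class included Ccl21a and Mmrn1, markers of lymphatic endothelium. The part of lymphatic cells in the class was not tested. Smooth muscle cells had 1 of 7 measured genes higher and 0 lower, where 6.31% of all genes were higher and 2.03% lower. Cardiomyocytes had 1 of 5 higher and 0 lower, beside 7.1% and 2.38% of all genes. Pericytes had 0 of 5 higher and 1 lower, beside 3.73% and 3.02%.

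Monocytes, ILC2, T cells and neutrophils had large ratios that rested on few cells. In monocytes 8 of the 10 genes were lower at 18 months and 0 higher, where 5.1% of all genes were lower and 6.4% higher, with a median of -0.84. Cd74 was 7972 CPM in 54 cells and 4309 in 336 cells, and 5 cells held 45.1% and 14.6% of its UMIs. The median monocyte had 1023 CPM of class II at 2 months and 1362 at 18 months, which is the opposite order to the sums. Of the 336 monocytes at 18 months, 167 were of a cluster led by Cd300e and Treml4, genes of patrolling monocytes, with Cd74 at 3719 CPM. Monocytes of the Ly6c2 cluster had Cd74 at 8510 CPM in 47 cells and 4650 in 169.

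In ILC2, the type 2 innate lymphoid cells, 8 of 8 measured genes were lower at 18 months, where 7.15% of all genes were lower and 2.96% higher, with a median of -2.94. Of the Cd74 UMIs in the 83 ILC2 at 2 months, 5 cells held 89.6%, and with the 5 richest cells of each gene left out the median was -0.51. The median ILC2 had 300 CPM of class II at 2 months and 321 at 18 months. H2-Oa stood apart, with 58.5 CPM (41.0 to 81.0) and 30.3 (19.6 to 44.8) against free RNA estimates of 1.97 and 1.33. Its UMIs were spread, with 36.1% and 28% of them in 5 cells.

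In T cells of the heart 6 of the 10 genes were higher at 18 months and 0 lower, where 5.88% of all genes were higher and 3.41% lower, with a median of 1.26. Cd74 was 527 CPM in 291 cells and 1265 in 319 cells, and 5 cells held 55.2% and 64.6% of its UMIs. The 14 T cells without a hashtag at 18 months had 8129 CPM of Cd74, and those with Hashtag11 or Hashtag12 had 682 and 302, against 484 and 336 at 2 months. In the 40 and 73 T cells without a UMI of an antigen-presenting cell marker, class II was 361 and 469 CPM, against 1111 and 2692 over all of them. H2-Oa (15.9 and 14.6 CPM) and H2-Ob (19.8 and 24.9 CPM) were neither higher nor lower. They lay above free RNA estimates from all foreign markers of 1.71 and 2.84 and of 1.90 and 5.19. Those estimates took 4.89% and 6.68% of the library level, where B cell, macrophage and dendritic markers alone gave 11.6% and 12.3%. In the T cells without such a marker UMI, H2-Oa was 8.70 and 2.39 CPM and H2-Ob 4.35 and 14.4, each from under 20 UMIs. The part of free RNA in both genes was not tested. Neutrophils had 5 of 8 measured genes lower and 0 higher, where 16.1% of all genes were lower and 6.25% higher, with a median of -0.99 that turned to 0.81 without the 5 richest cells.

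Of a list of 37 other genes of the pathway, 34 were found in the matrices. In B cells 31 were measured, 4 were higher and 2 lower at 18 months, beside 17.6% and 6.12% of all genes, with a median of 0.13 against 0.20 over all genes. March1, the ubiquitin ligase that sends class II molecules to degradation, was 93.3 and 210 CPM, and Cxcr4, a partner of surface Cd74, was 54.3 and 178 CPM. Lgmn, a protease of the invariant chain, was 23.6 and 50.6 CPM, and Cxcr2 was 0.771 and 2.90 CPM. The costimulatory ligands were lower, with Cd80 at 30.1 and 9.13 CPM and Cd86 at 107 and 68.0 CPM. The promoter factors, Rfx5, Rfxap, Rfxank, 3 NF-Y genes and Creb1, were neither higher nor lower in B cells, with Creb1, the most abundant, at 54.7 and 79.9 CPM.

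In macrophages 3 of 34 measured genes of the list were higher (Cxcr4, Cxcr2 and Cd80) and 1 lower (H2-Eb2), beside 3.97% and 3.98% of all genes, and Ctss, the protease that makes the last cuts in the invariant chain, was 1874 and 2179 CPM. In dendritic cells 2 of 33 were higher and 8 lower, beside 7.88% and 7.49% of all genes. Irf8, the factor that type 1 dendritic cells need, was 319 and 1014 CPM and March1 52.7 and 114 CPM. Among the 8 lower genes were the costimulatory Cd80 (50.9 and 17.9 CPM) and Cd40 (34.04 and 11.04 CPM) and the protease Ctsl (83.2 and 53.5 CPM). The others were Irf4, Prdm1, Cd4, Lag3 and H2-Eb2. In vascular endothelial cells 7 of 31 were higher and 0 lower, beside 5.02% and 4.24% of all genes. The 7 were Rfx5, Ctss, March1, Cxcr2, Icosl, Irf8 and Spi1, and Spi1, a factor of myeloid and B cells, was 2.76 and 10.1 CPM.

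The genes whose pattern was most like the mean of Cd74, H2-Aa, H2-Ab1 and H2-Eb1 were sought over 26 points, the 13 heart classes in each library, among 7589 genes. Pearson's r of log2(CPM + 1) was 0.97 for Cd83, a surface protein of mature dendritic and B cells, 0.96 for Ly86, and 0.95 for Fgd2. Scimp, Lat2, Fcgr2b, Cd180 and Kmo followed with 0.94 to 0.93. For Ciita alone the closest were Fgd2 and Lat2 (both 0.95), Ly86 and Cd83 (both 0.94) and Fcgr2b (0.93). These points share libraries and are not independent, so the values are descriptions.

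In the lymph node levels are on a scale that is not comparable with the heart, because the kit differs. The 448 B cells had Cd74 at 28490 CPM, H2-Aa at 6537, Ciita at 187 and H2-DMb2 at 1107, and H2-DMb2 gave 89.2% of H2-DM beta chain UMIs. Type 2 dendritic cells (170) had Cd74 at 41665 CPM and Ciita at 260, and type 1 cells (55) had 33717 and 215. In type 2 cells H2-DMb2 gave 63.4% of the beta chain UMIs, against 19.2% in type 1 cells. Migratory dendritic cells (132) had Cd74 at 14926 CPM and H2-Aa at 4211, but Ciita at 29.9, H2-DMa at 67.9 and H2-DMb1 at 43.9 CPM, against 12084 for H2-Aa, 812 for H2-DMa and 578 for H2-DMb1 in type 2 cells. Plasmacytoid cells (84) had Cd74 at 15339 CPM, plasma cells (74) 13867 and a cluster of monocytes and macrophages (30) 40057. Over the 8 hashtags, the Cd74 level of B cells ran from 22981 to 31085 CPM with a median of 28084, and the hashtags were not assigned to ages here.

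Lymph node T cells had low levels of all 10 genes but did not hold them in equal proportion. Over 7893 T cells class II summed to 381 CPM, with Cd74 at 225, H2-DMa at 37.6, H2-Oa at 30.4, H2-Aa at 29.1, H2-Ob at 18.4 and Ciita at 1.19 CPM. Relative to the whole library this was 5.22% for Cd74, 2.73% for H2-Aa, 2.78% for H2-Ab1, 2.56% for H2-Eb1, 4.71% for Ciita and 3.25% for H2-DMb2. For 10 B cell markers the median in T cells was 5.95% (range 1.51% to 57.7%, the highest being Ighm). H2-DMa (36.8%), H2-Oa (41.5%) and H2-Ob (29.3%) lay above 9 of the 10 markers. Markers of other cells reached similar levels in T cells, with Cd68 at 41.3%, Zbtb46 at 40.9% and Tnip3 at 89.2%, while Cd209a was at 1.03% and Adgre1 at 2.04%. In regulatory T cells Zbtb46 was at 93.1% and Cd68 at 12.6%. The part of RNA from macrophages and dendritic cells, which also make H2-DMa, was not tested. In 5117 T cells with paired receptor chains H2-Oa was 31.96 CPM and H2-DMa 38 CPM, while H2-Aa was 23.5.

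Regulatory T cells, a suppressive subset (1391 cells), had the highest Cd74 of the T cell clusters, 687 CPM (663 to 713), or 16% of the library level. H2-Aa there was 40.1 CPM, 3.76% of the library level, and H2-Oa was 57.8 CPM and H2-DMa 59.7 CPM, 78.9% and 58.4%. A Cd74 UMI was seen in 54.1% of regulatory T cells at a median of 2503 UMIs per cell, against 20.8% of T cells led by Klr genes at 6387. Those Klr cells (900) had Cd74 at 50.6 CPM and H2-Oa at 11.7 CPM. B cell markers had a median of 8.90% in regulatory T cells, with a range of 2.65% to 133.5%. Ighm (133.5%), Ighd (42.9%), Cd79b (18.0%) and Bank1 (16.3%) lay above Cd74 there, and the other markers below it. H2-Oa and H2-DMa lay below Ighm alone. The 359 regulatory T cells with no UMI of such a marker had Cd74 at 429 CPM, H2-Oa at 50.04 and H2-DMa at 56.6. Such cells can still hold free RNA, and its part in these levels was not tested. Over the 8 hashtags Cd74 in regulatory T cells ran from 297 to 957 CPM with a median of 683, and H2-Oa from 33.9 to 64.5 with a median of 60.4. Over all T cells, which include the regulatory T cells, the same ranges were 134 to 318 CPM for Cd74 and 25.2 to 36.9 for H2-Oa. The ranges of both genes thus overlapped, and the difference within each hashtag was not examined. CD8+ T cells led by Dapl1 (794 cells) had H2-Oa at 38.1 and H2-Ob at 25.7 CPM with Cd74 at 53.4.

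**Figure D5:**
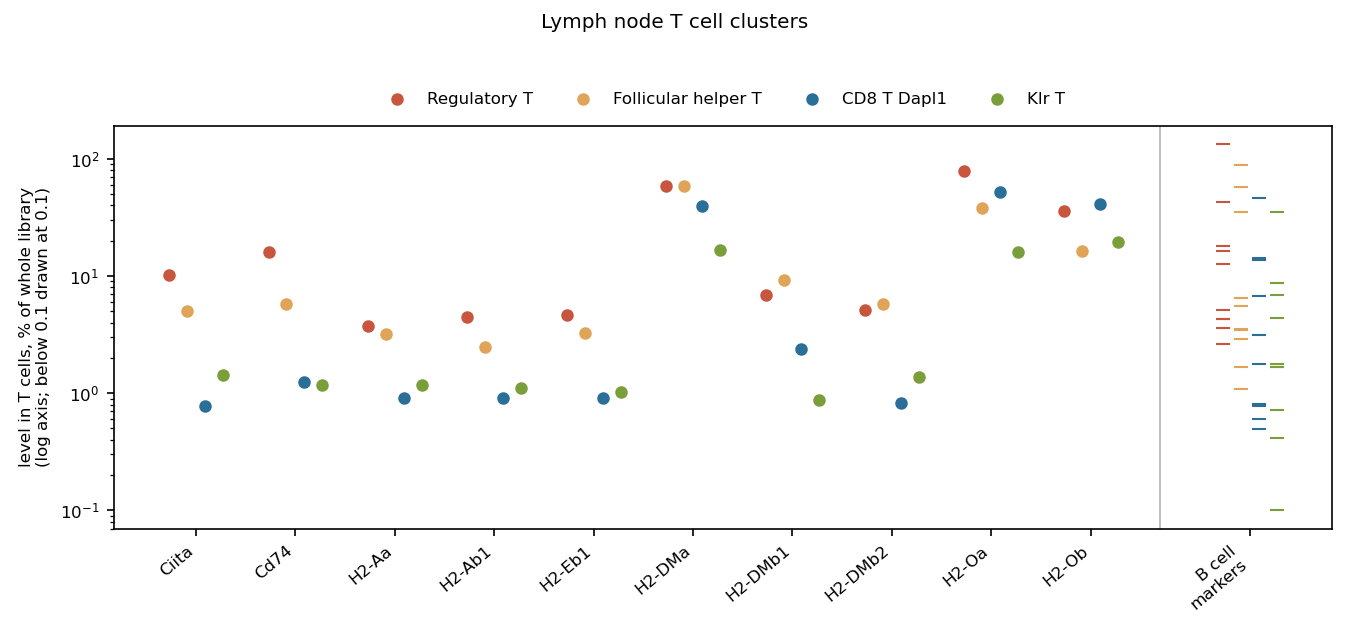
Level of each of the 10 genes in 4 lymph node T cell clusters as a percentage of its level in the whole lymph node library (log axis), with 10 B cell markers in the same clusters as dashes on the right. H2-DMa, H2-Oa and H2-Ob lie between 16% and 78.9%, Cd74 is at 16% in regulatory T cells, and the classical chains are under 5% in all 4 clusters.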

How the data were processed

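The count matrices hold UMIs per gene and cell barcode, deposited unscaled by the authors; Cell Ranger 3.1.0, Seurat 4.0.6 and the mm10 build are named in the submitters' processing notes. The receptor and hashtag files hold UMI counts as deposited, per the file headers. Sample groups came from the labels. Barcodes under 200 genes, or with mitochondrial UMIs above 15%, were dropped. Scrublet doublets were removed in the hearts; in the lymph node it called 0 barcodes and had not worked, so 2615 cells without a single hashtag (at least 10 UMIs and 3 times the next) were set aside instead. Counts were log-normalized and clustered (Leiden, 30 components) without the 10 genes, with Scanpy 1.11.5, igraph 0.11.9, leidenalg 0.10.2, scikit-learn 1.9.0, NumPy 2.4.6, SciPy 1.17.1 and pandas 2.3.3 under Python 3.11.15. Clusters were named from marker lists; some limits on naming were set after the data were seen.

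Levels were UMIs summed per class with exact 95% Poisson intervals, and ratios had exact conditional intervals; both cover counting error only. The scripts were tested on simulated data. All 10 members are named, and of the pathway list those past 1.5-fold and the most abundant of each role. The members and lists were chosen with earlier results of these data known. Alternatives covered filters, doublets, hashtags, scaling, thinning, free RNA and cluster weights. The whole libraries held 102618684, 53597057 and 39119479 UMIs.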

Additional observations from a re-analysis of the deposited data

Results flagged for a closer look

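Against a median log2 ratio of 0.09 in macrophages and -0.03 in dendritic cells, the class II median between the 18-month and 2-month libraries pointed up in some heart classes and down in others. It was 0.81 in vascular endothelial cells, 0.95 in endocardial cells, 0.62 in fibroblasts and 1.26 in T cells. It was -0.84 in monocytes, -0.99 in neutrophils and -2.94 in ILC2. These values are listed because the classes moved in opposite directions with 1 library per age, and the difference between classes was not tested. In endothelial cells and fibroblasts class II lay below the free RNA estimate at both ages (0.749 and 0.853 times, and 0.499 and 0.471 times). In ILC2 5 cells held 89.6% of the Cd74 UMIs at 2 months, and in T cells 5 cells held 64.6% at 18 months.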

How the results depend on the processing

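No paired analysis was possible because the labels carry no replicate numbers and each age is 1 library. Of 99 alternatives for the 10 main results, 42 stayed within the main value's interval, 56 moved and 1 was counted as reversed. The reversed one was the fibroblast median with doublets kept. Some counted as moved also changed sign, among them macrophage and dendritic medians, which lay near 0. Some endothelial quotients over the free RNA estimate rose above 1. The cause was not tested. The B cell median (0.32) was 0.23 with the authors' filter, 0.23 in cells with Xist and no Y gene, 0.36 in the converse cells, 0.29 for Hashtag09 against Hashtag11, 0.27 for Hashtag10 against Hashtag11, 0.37 for Hashtag10 against Hashtag12, 0.10 with trimmed-mean scaling, 0.24 thinned, 0.22 as the mean over cells and 0.11 with clusters weighted equally, an alternative chosen after seeing the data. In the same terms the macrophage median (0.09) was 0.31 with the authors' filter, 0.19 with Y genes and no Xist, -0.16 and -0.10 for Hashtag09 against Hashtag11 and Hashtag12, 0.25 and 0.22 for Hashtag10 against them, 0.36 thinned and 0.21 as the mean over cells. Macrophage H2-DMb2 (-0.72) was 0.82 with the authors' filter, 0.63 with Xist, and 0.82 and 0.60 for Hashtag10 against Hashtag11 and Hashtag12, and H2-Oa (-1.01) was 0.25 for Hashtag10 against Hashtag11. The dendritic median (-0.03) was 0.082 with the authors' filter, -0.12 with Xist, -0.072 with Y genes, -0.062 and 0.0031 for Hashtag09 against Hashtag11 and Hashtag12, -0.093 and 0.00040 for Hashtag10, -0.0652 with trimmed means and -0.0655 with clusters weighted equally. Dendritic H2-DMb2 (-0.73) was 0.39 with Xist, 0.19 for Hashtag10 against Hashtag12 and 0.14 with equal weight for the clusters large enough in both libraries. The neutrophil median (-0.99) was 0.31 with the authors' filter, 0.21 with doublets kept, 2.47 with Xist, 0.094 as the mean over cells and 0.81 without the 5 richest cells. The endothelial median (0.81) was 0.68 with doublets kept, 0.57 with Y genes, 1.01 and 1.26 for Hashtag09 against Hashtag11 and Hashtag12, 0.48 and 0.99 for Hashtag10, 0.49 thinned, 0.45 as the mean over cells and 0.67 with clusters weighted equally. With free RNA subtracted it was 1.39, but that value rested on Ciita (3.09) and H2-Ob (-0.30) alone. The other genes lay below the free RNA estimate at 2 months, so 1.39 does not describe the class II genes as a set. The fibroblast median (0.62) was -0.071 with doublets kept and 0.0063 for Hashtag09 against Hashtag12; with doublets kept H2-Aa was -0.020 and H2-Eb1 -0.12, and H2-Ob was -1.21 for Hashtag09 against Hashtag12. The T cell median (1.26) was -0.21 with Xist and -0.49 for Hashtag09 against Hashtag12. The log2 ratio of antigen-presenting over other cells at 2 months (5.76) was 6.02 with the authors' filter, 4.77 with doublets kept, 5.79 thinned and 5.63 as the mean over cells; at 18 months (4.62) these were 4.76, 4.14, 4.94 and 4.86, and 4.58 with a stricter filter. Endothelial class II over the free RNA estimate was 0.860 and 0.896 at 2 and 18 months from antigen-presenting cell markers alone, 0.943 and 1.06 with the authors' filter, and 1.11 and 1.33 with doublets kept; that of T cells at 2 months (1.92) was 0.811. Class II in lymph node T cells (381 CPM) was 437 with doublets kept, 342 in cells with both receptor chains and 314 in cells without a B cell marker UMI. Depth limits the genes with few UMIs, H2-Oa, H2-Ob and Ciita outside the antigen-presenting cells.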
